A study of Mus musculus with 800 samples.

Results

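The insulin-like growth factor (IGF) genes were followed through single cells of the embryonic mouse retina. They are 8 of the 49492 genes named in the deposited count table, taken by symbol: the ligands Igf1 and Igf2, the receptors Igf1r and Igf2r, the adaptor Irs1, and the binding protein genes Igfbp2, Igfbp5 and Igfbpl1. All 8 had a row. The cells came from Sert-Cre mice of the C57BL/6 strain at stage E15.5. In these mice Cre recombinase is driven by Slc6a4, the gene of the serotonin transporter, and the labels divide the 800 cells into 400 Tomato+ and 400 Tomato- cells without naming the reporter allele. Recombination by Cre is permanent, so a reporter can outlast expression of its driver. The table has 0 rows for Cre or Tomato. Retinas were pooled, dissociated with papain and sorted by flow cytometry, per the labels, and the gate is not described. Both groups carry the same driver. The labels tie no cell to an animal. Each group was treated as 1 sample, and no test between groups was made from cells.

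IGF1 and IGF2 are secreted growth factors that act mainly through the receptor tyrosine kinase IGF1R, which phosphorylates adaptors such as IRS1 and so engages the PI3 kinase and AKT pathway. IGF2R has no kinase domain and carries IGF2 to lysosomes. The IGF binding proteins hold the ligands outside the cell and can restrain or prolong their action. In the developing nervous system IGF signalling is known for effects on growth, survival and axon extension. In the embryonic retina, dividing progenitors give rise to precursors that leave the cell cycle and to retinal ganglion cells (RGCs), the neurons whose axons form the optic nerve.

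All 8 genes are protein-coding in the GENCODE annotation of the mouse build GRCm38. Igf1 lies on the plus strand of chromosome 10 from 87858265 to 87937042. Igf2 lies on the minus strand of chromosome 7 from 142650766 to 142666816, and Igf1r on the plus strand of the same chromosome from 67952827 to 68233668. Igf2r lies on the minus strand of chromosome 17 from 12682406 to 12769664. Igfbp2 and Igfbp5 are neighbours on chromosome 1, Igfbp2 on the plus strand from 72824503 to 72852474 and Igfbp5 on the minus strand from 72857932 to 72874884. Irs1 lies on the minus strand of chromosome 1 from 82233101 to 82291416, and Igfbpl1 on the minus strand of chromosome 4 from 45809468 to 45826923. Whether counting used the strand is not given in the sources used here. The annotated genes that overlap Igf1, Igf2, Igf2r and Irs1 and have a row in the table, such as Igf1os and Airn, had 0 counts in all 800 cells.

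The upstream sequences of Igf1r and Igfbp5 are shown because the pair sets a gene found in most of the 689 kept cells (Igf1r, 71.7%) beside one found in a minority (Igfbp5, 16.1%). Both are written 5′ to 3′ on the strand of the gene, from the RefSeq promoter table of build GRCm38.p6, with each CG pair in capitals.
Igf1r, chr7:67952007-67952256, plus strand: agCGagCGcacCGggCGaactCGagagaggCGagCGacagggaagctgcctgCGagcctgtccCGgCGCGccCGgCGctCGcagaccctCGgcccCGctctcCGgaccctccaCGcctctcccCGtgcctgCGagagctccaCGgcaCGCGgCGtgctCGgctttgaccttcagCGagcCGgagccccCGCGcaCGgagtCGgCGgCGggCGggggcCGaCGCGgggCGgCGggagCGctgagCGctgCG
Igfbp5, chr1:72874885-72875115, minus strand: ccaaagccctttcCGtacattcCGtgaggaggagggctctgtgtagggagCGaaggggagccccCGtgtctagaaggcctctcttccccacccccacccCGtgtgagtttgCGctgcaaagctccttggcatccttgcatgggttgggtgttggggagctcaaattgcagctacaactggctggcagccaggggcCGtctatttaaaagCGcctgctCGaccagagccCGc
The 250 bases before the RefSeq start of Igf1r held 42 CG pairs, against a median of 6 over 32851 promoters of the same length. Of all promoters, 0.865% held at least as many. This window ends at 67952256, short of the GENCODE start of the gene at 67952827. The Igfbp5 window of 250 bases held 10 CG pairs, and the part of it outside annotated exons is printed. The windows of Irs1 and Igf2r held 28 and 27, that of Igf1 held 5, and the 4 annotated starts of Igf2 held between 1 and 22. The Igf1 window, from 87860861 to 87861110, lies inside the GENCODE gene, with all 250 bases in an annotated exon. The letters AGGTGTGA, a core bound by T-box factors, were searched on both strands and were present in 1.12% of all promoters. None of the 11 windows found for 7 of the 8 genes held them, which says only that these letters are not in these windows.

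Cells over 20% mitochondrial counts or under 1000 genes were dropped, which took out 73 of 400 Tomato+ and 38 of 400 Tomato- cells and kept 689 in all. Median total counts per cell were 271789 in Tomato+ cells, with a range of 9653 to 644293, and 243410 in Tomato- cells, with a range of 16826 to 689788. Each title number in the labels holds 40 cells, numbers 1 to 10 being Tomato+ and 11 to 20 Tomato-, so the label and the title number cannot be told apart. Title numbers 8 and 10 were the shallowest, at medians of 148632 and 127257 counts before filtering. Levels are given as CPM, the counts of a gene summed over a set of cells and scaled by the summed total of that set. Slc6a4, which drives the label, was at 103.8 CPM in Tomato+ against 0.546 CPM in Tomato- cells. The 8 RGC markers summed to 16016 CPM in Tomato+ against 6967 CPM in Tomato- cells, and the 7 progenitor markers to 106.3 and 4146 CPM, so the groups differ in cell mix as well as in label.

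A cell was called positive for a gene at 5 or more counts. Pou4f2, a transcription factor of RGCs, was positive in 64.8% of kept Tomato+ and 25.7% (93) of kept Tomato- cells. Fgf15, a growth factor gene of progenitors, was positive in 54.1% of Tomato- cells and in 9 Tomato+ cells, and Atoh7, the factor that precedes RGC fate, in 46 Tomato- and 3 Tomato+ cells. These sets overlap, 27 of the Fgf15-positive Tomato- cells also being Pou4f2-positive. A further 33.3% of Tomato+ and 23.5% (85) of Tomato- cells were positive for none of the 3 markers. Median totals were 285184 counts in Pou4f2-positive Tomato+, 325092 in Pou4f2-positive Tomato-, 237829 in Fgf15-positive Tomato- and 262783 in Atoh7-positive Tomato- cells. Levels in CPM are not divided by gene length and are compared between sets of cells, never between genes, and fewer cells with a gene and less RNA per cell cannot be told apart in them. Intervals are 95% exact Poisson intervals for levels and 95% Clopper-Pearson intervals for shares, and cover counting error only. Log2 ratios are Tomato+ over Tomato- with 10 CPM added to both levels, and the spread given with them is the SD of log2(CPM + 10) between title numbers, pooled over the groups.

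Igf1, the ligand of IGF1R, was the gene of the 8 with the largest log2 ratio. Its level was 293.4 CPM (289.8 to 297.1) over all Tomato+ cells and 55.5 CPM (54.05 to 57.1) over all Tomato- cells, a 5.28-fold difference and a log2 ratio of 2.21 (SD 1.02, 20 title numbers). In title numbers 1 to 10 it was 191.4, 297.1, 286.5, 247.6, 225.7, 389.6, 467.3, 140.8, 476.5 and 162.6 CPM. In title numbers 11 to 20 it was 123.9, 118.3, 56.6, 1.53, 57.96, 14.2, 16.9, 77.6, 104.3 and 5.75 CPM. The lowest Tomato+ title number thus stood above the highest Tomato- one. The RGC markers moved with it, as given above, and their part was not tested over all cells. Of 10407 genes with enough counts to be compared, 1.64% stood entirely higher in Tomato+ in this way. Igf1 was also the 1 member of the 8 at least 2-fold higher in Tomato+ cells, where 3.0% of the 10407 genes were. At 2-fold in either direction there were 2 members of the 8, Igf1 and Igfbp5, and 9.72% of the genes. These calls use the log2 ratio with 10 CPM added. As plain ratios of CPM, Igf2 (3.03-fold) and Igfbp2 (2.06-fold) were also more than 2-fold lower in Tomato+.

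**Figure D1:**
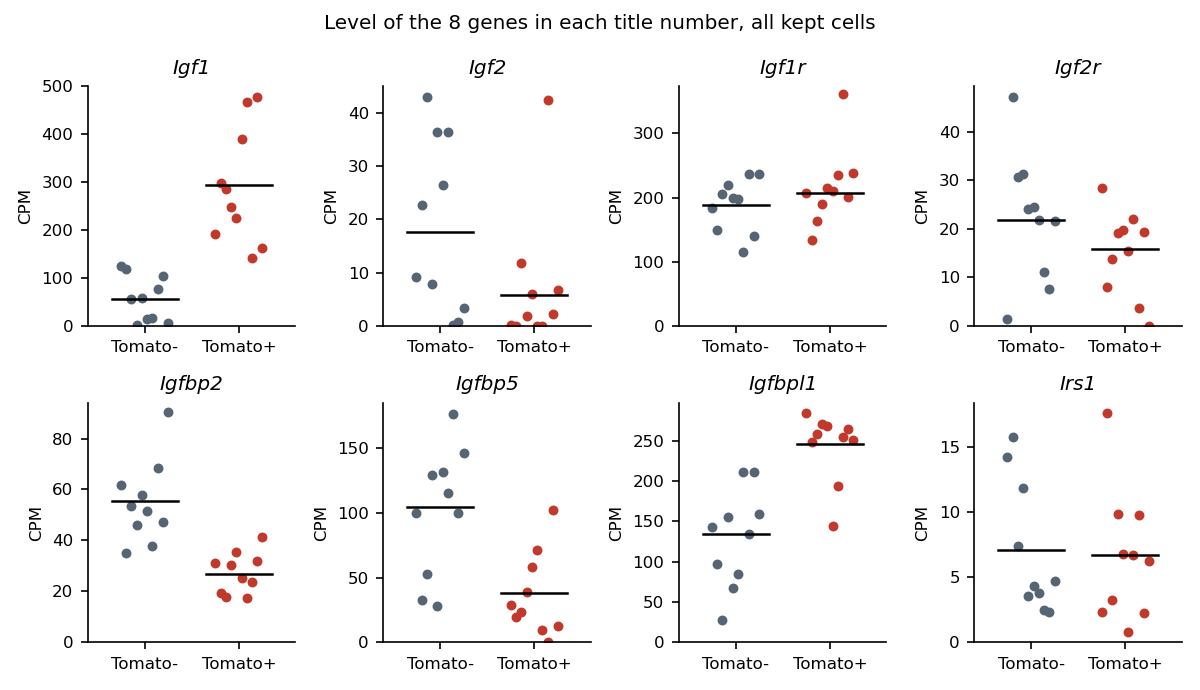
Level in CPM (y axis, from 0) of each of the 8 genes in the 10 Tomato- (grey) and 10 Tomato+ (red) title numbers, all kept cells; each point is 1 title number, the sideways scatter has no meaning, and the line is the level over all cells of the group. Igf1 is the gene whose points do not overlap between the labels, from 1.53 to 123.9 CPM in Tomato- and from 140.8 to 476.5 CPM in Tomato+.

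Restricted to Pou4f2-positive cells, Igf1 was 315.3 CPM in Tomato+ against 87.7 CPM in Tomato- cells, 3.597-fold apart (log2 ratio 1.74, SD 1.59). Title numbers ran from 139.8 to 599.6 CPM with a median of 257.2 in Tomato+ and from 0 to 281.8 CPM with a median of 43.4 in Tomato-, and the groups overlapped. The ratio was just above the spread between title numbers, which rest on 6 to 14 cells each in Tomato-. With only the cells positive for Pou4f2 and for neither Fgf15 nor Atoh7, the log2 ratio was 1.43, below that SD of 1.59. Over all kept Tomato- cells, 1 cell held 908 of 5193 Igf1 counts (17.5%) and 10 cells held 74.4%, against 29.3% in the 10 highest Tomato+ cells. Without that 1 Tomato- cell, a calculation added after seeing the data, the Tomato- level over all cells was 46.04 CPM and the log2 ratio 2.44. Among Pou4f2-positive cells 2.01% of 10651 compared genes were at least 2-fold higher in Tomato+, and Igf1 was again the 1 member of the 7 that could be compared. At 2-fold either way there were 3 members of the 7 and 4.65% of the genes. None of the 7 stood entirely above or below between the labels here, as 0.169% and 0.0282% of the genes did.

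Igf1 was present in part of the Pou4f2-positive cells, not in all. It was positive in 48.6% (41.7 to 55.5) of Pou4f2-positive Tomato+ cells and in 15.1% (8.48 to 23.97) of Pou4f2-positive Tomato- cells. Of these Tomato+ cells, 63 had 0 counts, 46 had between 1 and 4, 46 had between 5 and 99 and 57 had 100 or more, up to 1016. Of the 93 Tomato- cells, 57 had 0 counts and 8 had 100 or more. Tomato+ cells with none of the 3 markers were close to the Pou4f2-positive ones, at 44.04% (34.5 to 53.9) positive and 224.1 CPM. All 48 Igf1-positive cells among them were positive for the RGC genes Sncg, Nefm and Gap43, as were 97.2%, 100% and 94.4% of the 36 Igf1-zero cells of the same set. Pou4f1 was positive in 43.8% of the former and 55.6% of the latter.

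In progenitors and precursors Igf1 was rare. It was positive in 5.10% (2.47 to 9.18) of Fgf15-positive and 6.52% (1.37 to 17.9) of Atoh7-positive Tomato- cells, at 20.8 and 13.7 CPM. These intervals overlap each other and that of the Pou4f2-positive Tomato- cells. After each cell was thinned to 94783 counts, 59.9% of Pou4f2-positive Tomato+ and 28.3% of Pou4f2-positive Tomato- cells had at least 1 Igf1 count. The thinned share was 17.9% in Fgf15-positive and 15.2% in Atoh7-positive Tomato- cells. The Fgf15 and Atoh7 sets thus changed places, and both stayed below the Pou4f2-positive sets. Single counts were common everywhere, since 27.6% of Fgf15-positive cells had at least 1 Igf1 count without thinning.

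Igf1 is also known from microglia. The 9 microglia or macrophage markers summed to 7.61 CPM in Tomato+ cells (0.170 to 85.6 over title numbers) and 177.1 CPM in Tomato- cells (0.194 to 1106), and none of the 9 was positive in 10% of the cells of either group. The part of microglia in the Igf1 levels was not tested. None of the Igf1-positive Tomato+ cells, which were 47.1% of the group, and 1 of the 35 Igf1-positive Tomato- cells held at least 2 of these markers, and that 1 cell held 79 of 5193 Igf1 counts. Every Igf1-positive Tomato+ cell and 33 of the 35 Tomato- ones held at least 2 RGC markers, and 23 of those 35 held at least 2 progenitor markers, with 3294 of the 5193 counts. The RGC genes were common in the other Tomato- cells too: Sncg was positive in 97.1% of the 35 and 78.8% of the 240 with 0 Igf1 counts, and Gap43 in 94.3% and 82.5%. Of all Igf1-positive cells, 54.5% were Pou4f2-positive Tomato+ cells, 48 were Tomato+ cells with none of the 3 markers, and 14 were Pou4f2-positive Tomato- cells.

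Igf2, the second ligand and an imprinted gene expressed from the paternal allele, was lower in Tomato+ cells, within the spread. It was 5.82 CPM in all Tomato+ against 17.7 CPM in all Tomato- cells, with a log2 ratio of -0.81 (SD 0.84). Tomato+ title numbers ran from 0 to 42.3 CPM with a median of 2.04 and Tomato- ones from 0.108 to 42.9 CPM with a median of 15.9, so the groups overlapped and the difference was smaller than the spread. The Tomato+ level rested on 1 cell with 250 of the 502 Igf2 counts, in title number 8, which also held at least 2 microglia markers. Without the 1 Tomato+ and 2 Tomato- cells with at least 2 such markers, left out after seeing the data, the levels were 2.93 and 17.8 CPM and the log2 ratio -1.10, which is past 2-fold.

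Cells positive for Igf2 were few and most of them were Fgf15-positive. It was positive in 33 cells, 25 of them Tomato-, and 20 of those 25 were Fgf15-positive. The share was 10.2% (6.35 to 15.3) of Fgf15-positive and 10.9% (3.62 to 23.6) of Atoh7-positive Tomato- cells, at 31.1 and 24.95 CPM, and these do not differ beyond counting error. In Pou4f2-positive cells it was 1.89% of Tomato+ and 0 of 93 Tomato- cells, where 3 cells would be 3.23%. None of the 20 Fgf15-positive Igf2 cells was Pou4f2-positive. Of the 25 Igf2-positive Tomato- cells, 24 held at least 2 progenitor markers, 20 at least 2 RGC markers and 11 at least 2 neurogenic precursor markers, so the lists overlap within these cells. Igf2 is known to be high in vessels and mesenchyme, and 12 of the 25 cells held 1 endothelial or mural marker and none held 2. No share of Igf2-negative Tomato- cells with these markers was taken for comparison. The 6 endothelial or mural markers summed to 8.11 CPM in Tomato+ against 81.7 CPM in Tomato- cells, with Cdh5 and Rgs5 at 0 in both groups. The 6 mesenchyme markers summed to 1.92 and 6.38 CPM (0 to 11.5 and 0 to 29.3 over title numbers). Of these, Col3a1, Lum and Dcn were at 0 in both groups. The part of the single endothelial markers in the Igf2 result was not tested. H19, the non-coding gene expressed from the maternal allele of the same locus, was 38.2 CPM in Tomato+ against 33.02 CPM in Tomato- cells, and 6 cells were positive for both Igf2 and H19.

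**Figure D2:**
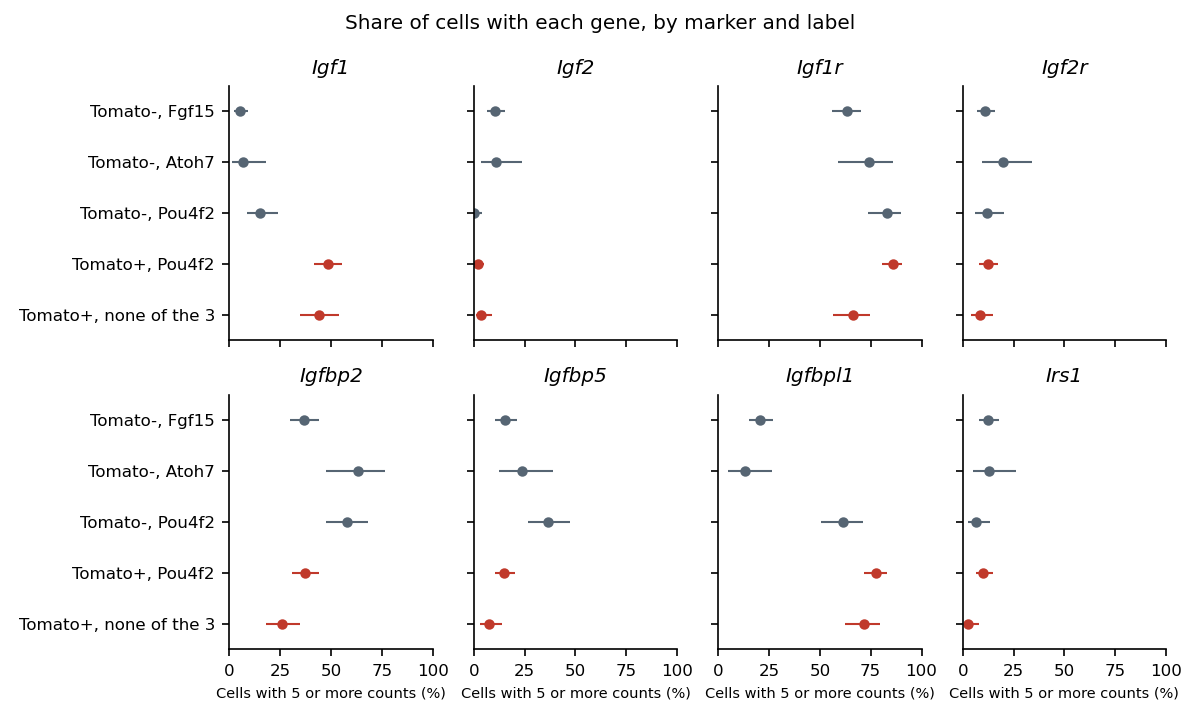
Percent of cells with 5 or more counts (x axis) of each of the 8 genes in 5 sets of cells, Tomato- in grey and Tomato+ in red; points are shares and bars 95% Clopper-Pearson intervals. Igf1 is highest in the Tomato+ sets (48.6% and 44.04%), Igf2 in the Fgf15 and Atoh7 sets (10.2% and 10.9%), Igf1r lies above 60% in all sets drawn, and Igfbpl1 separates Pou4f2-positive cells from the Fgf15 and Atoh7 sets.

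The receptor gene Igf1r was present in most cells of all kinds and at like levels under both labels. It was 207.1 CPM in Tomato+ against 188.8 CPM in Tomato- cells (log2 ratio 0.13, SD 0.34). Title numbers ran from 134.1 to 361.4 CPM with a median of 208.4 in Tomato+ and from 114.8 to 237.04 CPM with a median of 198.4 in Tomato-, and overlapped. In Pou4f2-positive cells it was 218.96 and 206.7 CPM (log2 ratio 0.08, SD 0.65). In all, 494 of the 689 kept cells held it.

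By kind of cell, Igf1r was positive in 85.8% (80.4 to 90.2) of Pou4f2-positive Tomato+ and 82.8% (73.6 to 89.8) of Pou4f2-positive Tomato- cells, which overlap. The share was 73.9% (58.9 to 85.7) of Atoh7-positive and 63.3% (56.1 to 70.02) of Fgf15-positive Tomato- cells, the latter interval lying below both RGC intervals. Neighbouring sets in this order overlapped. Thinned to 94783 counts, cells with at least 1 count made up 89.9%, 89.1%, 78.3% and 71.1% of these 4 sets. In summed level the Fgf15 set, at 181.7 CPM, stood above the Atoh7 set, at 134.8 CPM, so the order of shares is not the order of levels.

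Igf2r, the clearance receptor for IGF2 and in mice an imprinted gene, was sparse in every kind of cell. It was 15.9 CPM in Tomato+ against 21.9 CPM in Tomato- cells (log2 ratio -0.30, SD 0.64). Tomato+ title numbers ran from 0 to 28.5 CPM with a median of 17.3, and Tomato- ones from 1.34 to 47.1 CPM with a median of 22.99. The shares were 12.3% (8.17 to 17.4) of Pou4f2-positive Tomato+, 11.8% (6.06 to 20.2) of Pou4f2-positive Tomato-, 10.7% (6.76 to 15.9) of Fgf15-positive and 19.6% (9.36 to 33.9) of Atoh7-positive cells, all overlapping. Insr, the insulin receptor, which also binds IGF2, was positive in 40.1% (33.4 to 47.03), 36.6% (26.8 to 47.2), 25% (19.1 to 31.7) and 17.4% (7.82 to 31.4) of the same sets. Ins1 and Ins2, the insulin genes, had 0 counts in both groups.

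Irs1, the adaptor, was low and differed between the labels by less than the spread. It was 6.72 CPM in Tomato+ against 7.10 CPM in Tomato- cells (log2 ratio -0.03, SD 0.40), with title numbers from 0.780 to 17.6 CPM around a median of 6.48 and from 2.31 to 15.8 CPM around a median of 4.52. Positive cells numbered 55 and made up 9.91% (6.24 to 14.7) of Pou4f2-positive Tomato+, 6.45% (2.40 to 13.5) of Pou4f2-positive Tomato-, 12.2% (8.01 to 17.7) of Fgf15-positive and 13.04% (4.94 to 26.3) of Atoh7-positive cells. All 4 intervals overlap.

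The binding protein genes divided by label and by kind of cell. Igfbp2, which encodes a binding protein of embryonic neural tissue, was 27.02 CPM in Tomato+ against 55.7 CPM in Tomato- cells (log2 ratio -0.83, SD 0.32). Title numbers ran from 17.3 to 41.3 CPM with a median of 27.8 in Tomato+ and from 35.3 to 90.5 CPM with a median of 52.5 in Tomato-. Of the 10 Tomato+ title numbers, 8 lay below every Tomato- one. None of the 8 members lay entirely lower in Tomato+, where 3.24% of the genes did. In Pou4f2-positive cells the levels were 26.6 and 68.1 CPM (log2 ratio -1.09, SD 0.47), with title numbers from 16.2 to 36.4 CPM in Tomato+ and from 32.99 to 106.5 CPM in Tomato-. Of the 10 Tomato- title numbers, 9 lay above every Tomato+ one. This difference was more than the SD between title numbers. Igfbp2 was positive in 37.3% (30.7 to 44.2) of Pou4f2-positive Tomato+, 58.1% (47.4 to 68.2) of Pou4f2-positive Tomato-, 36.7% (30.0 to 43.9) of Fgf15-positive and 63.04% (47.5 to 76.8) of Atoh7-positive cells. The Atoh7 and Tomato- Pou4f2 sets thus shared the higher shares and the Fgf15 and Tomato+ Pou4f2 sets the lower ones. By level the Fgf15 set, at 50.4 CPM, stood between the Pou4f2-positive Tomato+ cells, at 26.6 CPM, and the Tomato- ones, at 68.1 CPM.

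Igfbp5, whose product binds both IGFs and the extracellular matrix, had the lowest log2 ratio of the 8. It was 38.04 CPM in Tomato+ against 104.7 CPM in Tomato- cells (log2 ratio -1.26, SD 0.92). Tomato+ title numbers ran from 0.505 to 102.4 CPM with a median of 26.3 and Tomato- ones from 27.99 to 176.4 CPM with a median of 107.6, and 5 of 10 Tomato+ title numbers lay below every Tomato- one. With 10 CPM added it was the 1 member at least 2-fold lower over all cells, where 6.73% of genes compared were, and with 1 CPM added it was 1 of 3. In Pou4f2-positive cells it was 40.2 CPM in Tomato+ against 165.98 CPM in Tomato- cells, 4.13-fold lower in Tomato+ (log2 ratio -1.81, SD 1.05). There title numbers ran from 0.849 to 89.7 CPM with a median of 28.4 and from 22.8 to 386.1 CPM with a median of 163.3, and 7 of 10 Tomato- ones lay above every Tomato+ one. Igfbp2 and Igfbp5 were the 2 members of 7 at least 2-fold lower among Pou4f2-positive cells, against 2.64% of genes compared.

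Igfbp5 was highest in the Pou4f2-positive Tomato- cells by share as well. It was positive in 36.6% (26.8 to 47.2) of them, in 14.6% (10.2 to 20.1) of Pou4f2-positive Tomato+ cells, in 15.3% (10.6 to 21.1) of Fgf15-positive cells at 71.8 CPM and in 23.9% (12.6 to 38.8) of Atoh7-positive cells at 114.8 CPM. The lowest 3 shares overlap each other, and the interval of the Atoh7-positive cells also overlaps that of the Pou4f2-positive Tomato- cells. In Pou4f2-positive cells alone, the intervals of the Tomato+ and Tomato- shares did not meet, but they hold counting error only and do not test the label. Shares of single title numbers did overlap: the highest Tomato+ one was 30.4% (title number 6) and the lowest Tomato- one 14.3% (title number 13). After thinning, the shares of Pou4f2-positive Tomato+ and Tomato- cells were 21.3% and 43.5%.

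The Igfbp5-positive cells among the Pou4f2-positive Tomato- cells differed from those with 0 Igfbp5 counts in some RGC subtype genes. Cntn2, an axonal adhesion molecule, was positive in 88.2% (72.5 to 96.7) of 34 Igfbp5-positive cells and 47.8% (32.9 to 63.1) of 46 cells with 0 Igfbp5 counts. Pou3f1, a POU transcription factor, was positive in 67.6% and 30.4%, and Ppp1r17, a phosphatase regulator, in 50% and 13.04%. Median totals of these 2 sets were 337840 and 299730 counts. The share was higher in Igfbp5-positive cells in 8 of 10 title numbers for Cntn2, 9 of 10 for Pou3f1 and 6 of 10 for Ppp1r17. Ubash3b was lower, at 11.8% against 37.0%, and Car10 was at 0% against 17.4%, with overlapping intervals for each. The other binding protein genes were also more often positive in these cells, Igfbpl1 in 79.4% against 52.2% and Igfbp2 in 70.6% against 50%, with overlapping intervals. This comparison of cells was chosen after the values of Igfbp5 were seen.

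Igfbpl1, an IGF binding protein-like gene, was far more frequent in Pou4f2-positive cells than in the Fgf15 and Atoh7 sets. It was 246.03 CPM in all Tomato+ against 133.6 CPM in all Tomato- cells (log2 ratio 0.83, SD 0.59). Title numbers ran from 144.6 to 284.3 CPM with a median of 256.4 in Tomato+ and from 28.2 to 211.2 CPM with a median of 138.9 in Tomato-, and 8 of 10 Tomato+ title numbers lay above every Tomato- one. In Pou4f2-positive cells it was 260.2 and 236.8 CPM (log2 ratio 0.13, SD 1.18), well within the spread, with title numbers from 131.1 to 296.3 and from 9.59 to 405.6 CPM. Positive cells made up 77.8% (71.6 to 83.2) of Pou4f2-positive Tomato+, 61.3% (50.6 to 71.2) of Pou4f2-positive Tomato-, 20.4% (14.998 to 26.7) of Fgf15-positive and 13.04% (4.94 to 26.3) of Atoh7-positive cells. The progenitor and precursor shares overlap each other and lie below both RGC shares. Within the Pou4f2-positive Tomato- cells, the 57 Igfbpl1-positive cells held Cntn2 in 84.2% and the 18 cells without a count in 22.2%, and Pou3f1 in 64.9% and 16.7%. Their median totals were 344270 and 220256 counts. After thinning the shares were 85.7% and 33.3% for Cntn2 and 73.2% and 22.2% for Pou3f1.

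Ligand and receptor were then read in the same cells. Of the 689 kept cells, 21.5% were positive for both Igf1 and Igf1r, which were 38.2% of Tomato+ and 6.35% of Tomato- cells. A further 5.95% held Igf1 without Igf1r and 22.4% held neither. Igf1r without Igf1 was found in 50.2%, which were 41.3% of Tomato+ and 58.3% of Tomato- cells. Among Pou4f2-positive Tomato+ cells 42.5% (90 cells) held both, 43.4% (92 cells) the receptor alone, 6.13% (13 cells) the ligand alone and 8.02% (17 cells) neither. Among Pou4f2-positive Tomato- cells 15.1% (14 cells) held both, 67.7% (63 cells) the receptor alone and none the ligand alone. In Fgf15-positive Tomato- cells both were found in 2.04% (4 cells), the receptor alone in 61.2% (120 cells), and in Atoh7-positive Tomato- cells in 2.17% (1 cell) and 71.7% (33 cells). The receptor without the ligand was therefore the most frequent state in all of these sets, by 2 cells only among the Pou4f2-positive Tomato+ cells.

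**Figure D3:**
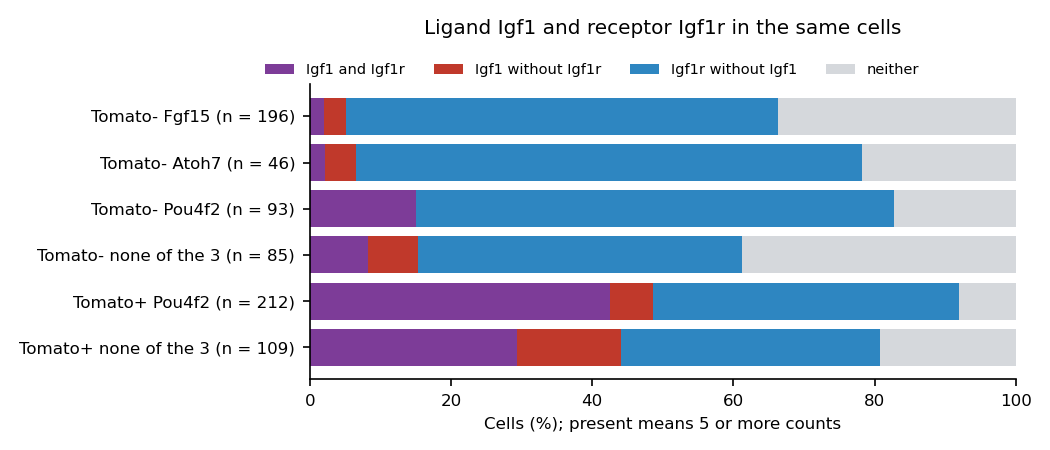
Percent of cells (x axis, stacked to 100) with 5 or more counts of Igf1 and Igf1r, of 1 of them or of neither, in 6 sets of cells named with their number on the y axis. The part with both genes is 42.5% in Pou4f2-positive Tomato+ cells and 15.1% in Pou4f2-positive Tomato- cells, and 2.04% in Fgf15-positive Tomato- cells, where 61.2% hold the receptor alone.

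Igf1r was about as frequent in RGCs with Igf1 as in those without, within overlapping intervals. In Pou4f2-positive Tomato+ cells Igf1r was positive in 87.4% (79.4 to 93.1) of Igf1-positive and 84.4% (76.2 to 90.6) of the other cells, and after thinning in 89.5% and 90.4%. Its level was 199.6 CPM in the former and 237.4 CPM in the latter. Over title numbers the share was higher in Igf1-positive cells in 5, lower in 3 and equal in 2. In Pou4f2-positive Tomato- cells all 14 Igf1-positive cells and 63 of the other 79 (79.7%) held Igf1r. Across the Pou4f2-positive Tomato+ cells Pearson's r of log2(CPM + 10) between Igf1 and Igf1r was 0.065, a description over cells of 1 group that differ in depth. Igf2 stood likewise: Igf1r was positive in 13 of the 20 Igf2-positive Fgf15 cells (65%) and in 63.1% of the others, and Igf2r in 15% and 10.2%. In all, 3 cells were positive for both ligands, 22 for Igf2 and Igf1r, and 3 for Igf2 and Igf2r.

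Some of the subtype genes differed in share between Igf1-positive and Igf1-zero RGCs, Eomes by the most, and others hardly did. Among Pou4f2-positive Tomato+ cells, Eomes, a T-box transcription factor of RGC types that include the melanopsin cells, was positive in 67.96% (58.04 to 76.8) of the Igf1-positive cells and 11.1% (4.59 to 21.6) of 63 cells with 0 Igf1 counts. Its level was 432.7 against 28.2 CPM, and after thinning the shares were 74.3% and 20%. The share was higher in Igf1-positive cells in 10 of 10 title numbers. Opn4, the melanopsin gene, was positive in 10.7% (5.45 to 18.3) against 0% (0 to 5.69), with overlapping intervals. The next genes in size, Stmn2 and Isl1, differed by 1.59 and 1.23 percentage points and so hardly at all. Median totals of the sets were 286071 and 269392 counts.

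Slc6a4 and Ephb1, known from RGCs with uncrossed (ipsilateral) axons, went the other way, as did Zic5 and Cntn2. Slc6a4 was positive in 31.1% (22.3 to 40.9) of Igf1-positive and 53.97% (40.9 to 66.6) of Igf1-zero cells, at 70.2 and 175.7 CPM. The intervals of Slc6a4 just overlap. Zic5, a zinc finger factor, was positive in 22.3% against 52.4%, and Cntn2 in 23.3% against 52.4%. Ephb1, the guidance receptor of these axons, was positive in 55.3% against 71.4%, at 96.8 and 307.001 CPM. Each of these 4 genes had a lower share in the Igf1-positive cells in 8 of 10 title numbers. Igfbpl1 was also lower in Igf1-positive cells, at 67.96% (58.04 to 76.8) against 84.1% (72.7 to 92.1), with overlapping intervals. Its level was 161.5 against 358.7 CPM, and its share was lower in 6 of 10 title numbers. Pou4f1 and Isl2 had near equal shares in both sets. The level of Pou4f1 was lower in the Igf1-positive cells, at 81.5 CPM against 147.997 CPM in the Igf1-zero cells. Sncg, Nefl and Gap43 were positive in every cell of both sets, so their shares could not differ.

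**Figure D4:**
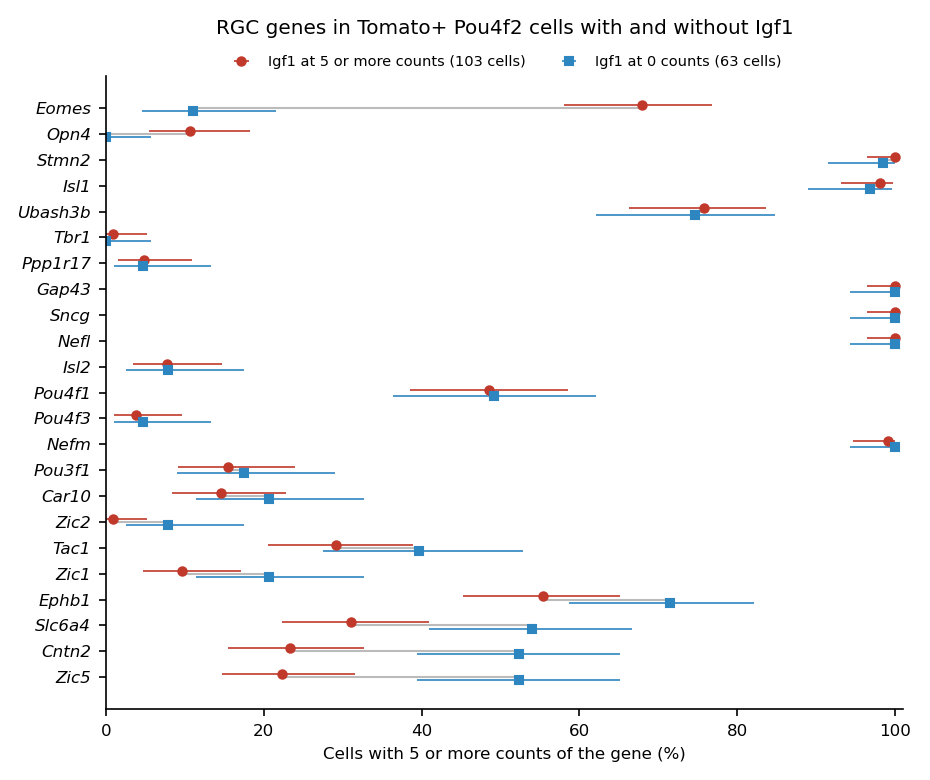
Percent of Pou4f2-positive Tomato+ cells with 5 or more counts (x axis) of 23 RGC genes (y axis), in cells with Igf1 at 5 or more counts (red circles) and 63 cells with Igf1 at 0 counts (blue squares), ordered by their difference; bars are 95% Clopper-Pearson intervals. Eomes stands apart at 67.96% and 11.1%, and Slc6a4, Cntn2 and Zic5 lie lower in the Igf1-positive cells.

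The same cells were also sorted by Eomes, which reads the same association from the other side and adds no separate support. Of 88 Eomes-positive cells 79.5% (69.6 to 87.4) held Igf1, at 622.7 CPM. Of 90 cells with 0 Eomes counts 22.2% (14.1 to 32.2) did, at 68.1 CPM. In the 38 cells that held Slc6a4 and no Eomes count, Igf1 was positive in 4 cells (10.5%), at 23.1 CPM, and Igfbpl1 in 94.7%, at 428.6 CPM. In the 44 Eomes-positive cells without a Slc6a4 count, Igf1 was positive in 84.1%, at 786.4 CPM, and Igfbpl1 in 65.9%, at 146.9 CPM. In the 30 cells positive for both Eomes and Slc6a4, 70% held Igf1, at 388.005 CPM. Of 12 Opn4-positive cells 11 held Igf1, at 1355 CPM.

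Igf1 was also more frequent with Eomes outside these cells. In Tomato+ cells with none of the 3 markers, Igf1 was positive in 72.4% of 29 Eomes-positive cells and 33.96% of 53 cells with 0 Eomes counts. In Pou4f2-positive Tomato- cells it was positive in 7 of 8 Eomes-positive cells and 9.72% of 72 with none, and over all Tomato- cells in 52% of 25 Eomes-positive cells and 6.27% of those with none. Eomes was positive in 37.1% of the 35 Igf1-positive Tomato- cells and 1.25% of the 240 Tomato- cells with 0 Igf1 counts. Among the 14 Igf1-positive Pou4f2-positive Tomato- cells, Ubash3b (71.4% against 15.8% of 57 Igf1-zero cells), Eomes (50% against 1.75%), Pou4f1 (92.9% against 56.1%) and Ephb1 (28.6% against 7.02%) were the genes with the largest excess in share. With 14 cells the intervals were wide, at 41.9 to 91.6% for Ubash3b, 66.1 to 99.8% against 42.4 to 69.3% for Pou4f1 and 8.39 to 58.1% for Ephb1. By level Pou4f1 went the other way, at 103.4 CPM in the Igf1-positive and 187.8 CPM in the Igf1-zero cells. Cntn2 (42.9% against 68.4%), Pou3f1 (28.6% against 50.9%), Zic5 (0% against 21.1%) and Ppp1r17 (14.3% against 35.1%) had the largest deficit. The intervals of each of these genes and of Ephb1 overlapped between Igf1-positive and Igf1-zero Tomato- cells. Those of Ephb1 overlapped in Tomato+ cells as well. By share alone, Ephb1 lay on opposite sides in Tomato+ and Tomato- RGCs and Zic5 and Cntn2 on the same side. Whether the labels differ in this was not tested.

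**Figure D5:**
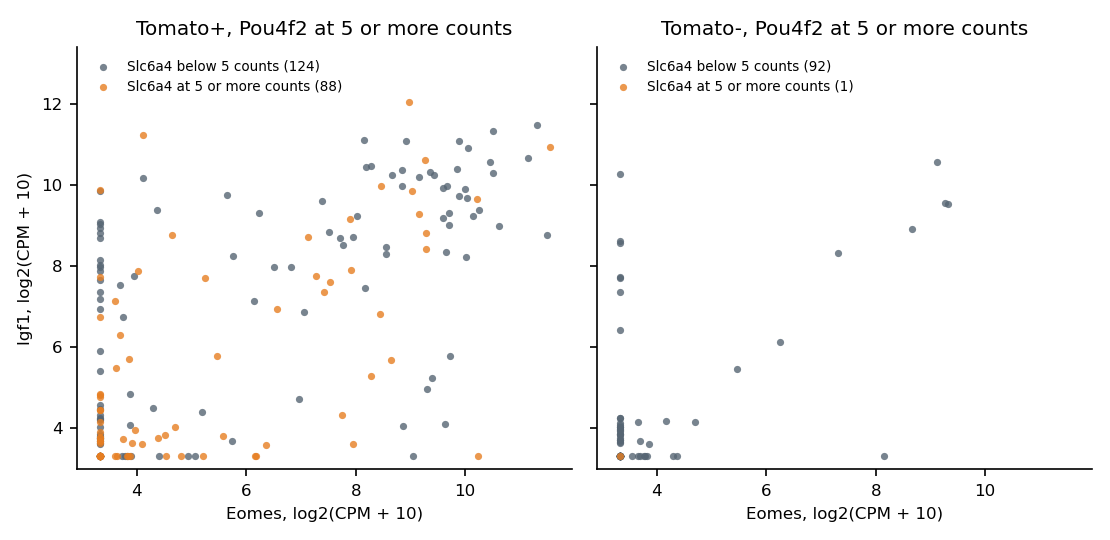
Igf1 (y axis) against Eomes (x axis), both as log2(CPM + 10), in Pou4f2-positive cells, Tomato+ on the left and Tomato- on the right; each point is 1 cell, orange where Slc6a4 has 5 or more counts. Igf1 is positive in 79.5% of the 88 Eomes-positive Tomato+ cells and in 7 of the 8 Eomes-positive Tomato- cells, while 7 of the 14 Igf1-positive Tomato- cells have 0 Eomes counts. Most Tomato+ cells with Slc6a4 and no Eomes count lie at the bottom left, where Igf1 is 23.1 CPM over 38 cells.

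The genes most like each member were ranked by Pearson's r of log2(CPM + 10) over the 689 kept cells, among 7565 genes, as a description over cells that share groups and differ in depth. For Igf1 they were Eomes (r 0.66), Synm (0.66), Mast4 (0.53), Lrfn5 (0.51) and Rbms3 (0.51). Within the Pou4f2-positive Tomato+ cells they were Eomes (0.67), Synm (0.66), Mast4 (0.57), Rgs4 (0.52) and Clstn2 (0.45), and Igfbpl1 stood at -0.34. For Igfbpl1 the 5 were the neuronal and RGC genes Elavl4 (0.55), Gap43 (0.55), Gng3 (0.55), Isl1 (0.54) and Nefm (0.54). For Igfbp5 they were Cntn2 (0.31), Peli2 (0.30), Pou3f1 (0.28), Rassf4 (0.28) and Ppp1r17 (0.27). For Igf1r, Ank2 (0.28), Apc (0.28), Kif1b (0.26), Nrxn2 (0.25) and Kmt2c (0.25) led, and for Igfbp2, Pkm (0.25), Rassf4 (0.23), Ptma (0.20), Igfbp5 (0.19) and Ppp1r17 (0.19). For Igf2r no gene passed 0.17. The values for Igfbp5, Igf1r, Igfbp2 and Igf2r are weak.

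The wider IGF pathway was read from a list of 56 genes, the members included, of which 38 had enough counts over all cells. Besides the members, none of 30 was at least 2-fold higher in Tomato+ cells and 4 were at least 2-fold lower, against 3.0% and 6.73% of all genes compared. The median log2 ratio of the list was -0.01, against -0.06 over all genes compared. Grb10, an adaptor that restrains IGF1R and insulin receptor signalling, was 119.7 CPM in Tomato+ against 478.5 CPM in Tomato- cells (log2 ratio -1.91), and positive in 49.8% and 72.7% of cells. Igf2bp1, an RNA-binding protein that binds Igf2 transcripts, was 43.1 and 148.5 CPM (log2 ratio -1.58). Igfbp4, another binding protein, was 37.8 and 86.7 CPM (log2 ratio -1.02). Pdk1, which in the mouse is the symbol of a mitochondrial pyruvate dehydrogenase kinase and not of the AKT kinase Pdpk1, was 8.63 and 43.98 CPM (log2 ratio -1.53). Over title numbers Grb10 ran from 67.6 to 191.97 CPM in Tomato+ and from 326.3 to 765 CPM in Tomato-, and Igf2bp1 from 24.2 to 80.5 CPM and from 103.6 to 193.8 CPM, with no overlap. Igfbp4 (11.8 to 75.5 and 29.1 to 148.95 CPM) and Pdk1 (1.90 to 20.1 and 13.6 to 88.2 CPM) overlapped. All 4 lay lower in the group where the progenitor markers were lower, and the part of cell mix in them was not tested.

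Among Pou4f2-positive cells 37 genes of the list could be compared, with a median log2 ratio of 0.03 against -0.03 over all genes. Besides Igf1, Foxo1 and Foxo3, transcription factors that AKT keeps out of the nucleus, were at least 2-fold higher in Tomato+, as were 2.01% of all genes compared. Foxo1 was 31.8 CPM in Tomato+ against 9.32 CPM in Tomato- cells (log2 ratio 1.11), and positive in 19.8% and 5.38% of cells. Foxo3 was 27.1 and 6.98 CPM (log2 ratio 1.13), and positive in 20.8% and 5.38%. Besides Igfbp2 and Igfbp5, Grb10, at 121.1 and 265.96 CPM (log2 ratio -1.07), and Pdk1, at 9.92 and 44.1 CPM (log2 ratio -1.44), were at least 2-fold lower, as were 2.64% of all genes compared. Title numbers overlapped for each of these 4 genes. Foxo1 ran from 3.43 to 70.8 CPM in Tomato+ and from 0 to 43.7 CPM in Tomato- (SD 0.89), and Foxo3 from 4.90 to 56.9 CPM and from 0 to 45.4 CPM (SD 0.74). The SD was 0.65 for Grb10 and 0.84 for Pdk1.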

How the data were processed

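Processing was done by the authors up to the deposited table of counts, 1 row per gene and 1 column per cell, with no normalization. Per the labels' protocols the libraries were made with SmartSeq2, and the series title names C1. Per the submitters' processing notes Seurat 2.3, R 3.4.4 and the mm10 genome were used. The aligner, the counting tool, the annotation and the use of strand are not given in the sources used here. Column headers end in "umi", but whether the counts are molecules or reads is not stated. The median nonzero count was 16. The table has 801 columns, of which 1 belongs to no cell in the labels and stayed unused. No row lacked a gene name, 93 repeated rows stayed in the totals, and 0 cell columns were identical.

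Groups came from the label in each cell's annotation. Cells under 1000 genes or over 20% mitochondrial counts were left out (73 Tomato+, 38 Tomato-, all by the second limit), leaving sums of 86301166 and 93484125 counts. Sets of cells were made by 5 or more counts of Fgf15, Atoh7 or Pou4f2, without clustering, and doublets were not called. Genes with 5 or more counts in at least 5% of the cells of either group were compared, 10407 over all cells and 10651 in Pou4f2-positive cells, by log2 ratio of CPM with a pseudocount of 10. A gene was called at 2-fold. Title numbers served as the spread, and whether they are plates, runs or animals is not stated. Thinning drew each cell to 94783 counts, the 10th percentile, and left out shallower cells. The scripts were tested on simulated data. Named genes are the 8 members, pathway genes past 2-fold and positive in 10% of cells of either group, the 4 subtype genes with the largest difference each way, and the 5 most alike genes of each member positive in 10% of kept cells. Igfbp5 partners, Igfbpl1 partners and the Eomes sets were chosen after their values were seen. The members and lists were chosen with earlier results of these data known. Alternatives were TMM (edgeR 4.0.16) and median-of-ratios scaling (DESeq2 1.42.0, R 4.3.3), other pseudocounts, thresholds and cell filters, equal weight per cell, and leaving out each title number. Python 3.11.15, numpy 2.4.6, pandas 2.3.3, scipy 1.17.1 and matplotlib 3.10.9 were used.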

Additional observations from a re-analysis of the deposited data

How the results depend on the processing

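Of 467 values of the 16 member log2 ratios under alternatives, 3 moved by more than the spread between title numbers, all of Igf2 in Pou4f2-positive cells, where it is nearly absent: 1.05 with a pseudocount of 1 CPM, -0.63 with positive at 1 count and -1.03 after thinning, against 0.20. Reversal was counted only for ratios that were at least 2-fold as reported, and none of those reversed. Some smaller ratios changed sign. Igf1r in Pou4f2-positive cells went from 0.08 to -0.06 without title number 11, and Irs1 over all cells from -0.03 to 0.10 with median-of-ratios scaling. The log2 ratio of Igf1 ran from 2.17 to 2.61 over all cells and from 1.43 to 2.33 in Pou4f2-positive cells. The value of 1.43 came with cells positive for 1 marker only. With each title number left out it ran from 2.07 to 2.40 over all cells and from 1.55 to 2.13 in Pou4f2-positive cells. Igfbp5 in Pou4f2-positive cells ran from -1.96 to -1.62 with each title number left out.

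Counts of members at 2-fold moved with some settings. With a pseudocount of 1 CPM, 3 members were lower over all cells and 2 were higher in Pou4f2-positive cells, and 19.5% of all genes passed 2-fold. Without title numbers 8 and 10, 2 members were lower over all cells. With cells weighted equally 2 were higher, Igfbpl1 being the second at 1.08. With each title number left out, members lower over all cells ran from 1 to 2, the latter without title number 8, and members lower in Pou4f2-positive cells from 1 to 2, the former without title number 20. With every gene that has a count compared, 4.54% of genes passed 2-fold in place of 9.72%. The TMM and median-of-ratios factors differed between groups by -0.12 and -0.14 (log2) over all cells, which raises each ratio by that much.

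Igf1 was present in 71.8% of Pou4f2-positive Tomato+ and 35.8% of Pou4f2-positive Tomato- cells when 1 count was enough, and in 60.2% and 26.2% after thinning, where Pou4f2 too was taken at 1 count. With the Pou4f2-positive cells kept as reported the shares were 70.3% and 38.7%, and 59.9% and 28.3%. Eomes in Igf1-positive cells ran from 64.7% to 69% and in Igf1-zero cells from 5% to 30.99%. No paired analysis was possible because no cell is tied to an animal and the groups share no title number. Igf2, Irs1 and Igf2r were positive in 4.79%, 7.98% and 11.8% of kept cells, so few cells stand behind their values.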

Other observations

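The cells left out for over 20% mitochondrial counts, 73 Tomato+ and 38 Tomato-, held Igf1r at a higher CPM than the kept cells. Igf1r was 446.6 CPM (430.8 to 462.9) in the left-out Tomato+ and 623.1 CPM (597.8 to 649.1) in the left-out Tomato- cells, against 207.1 and 188.8 CPM in the kept ones. Their median totals were 94705 and 88370 counts. Igf1 kept its order between the labels there, at 140.6 CPM in Tomato+ against 43.7 CPM in Tomato- cells, and was lower than in the kept cells. Igfbpl1 was 109.6 and 84.9 CPM, also lower than in the kept cells. The part of cell damage in these values was not tested.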
